A study of Mus musculus with 6 samples.

Results

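Activator protein 1 (AP-1) is a family of transcription factor dimers that share a basic region and a leucine zipper. FOS proteins pair with JUN proteins, JUN proteins can also pair with each other, and ATF and BATF proteins join the same dimers. Most of these genes are immediate early genes, which growth factors, cytokines and cell stress switch on within minutes through MAP kinases, before new protein is made. Egr1, a zinc finger factor of the early growth response family, is induced by the same signals. In epithelial tissues these factors are known for wound, inflammation and growth responses, and they are also known to rise while tissue is taken apart into single cells.

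The 10 genes described here are Fos, Fosb, Fosl1 and Fosl2 (FOS family), Jun, Junb and Jund (JUN family), Atf3, Batf and Egr1. They were taken by gene symbol from 24346 symbols in the tables, all 10 were found, and all 10 passed the minimum of 1 FPKM in the mean of the 6 libraries, above which 10951 genes were tested. FPKM is the number of sequenced fragments scaled to transcript length and library size. RNA came from luminal cells of the mouse prostate, the secretory cells lining its glands, sorted by flow cytometry from C57BL/6 mice aged 4 months. Which surface markers defined the sort gate is not stated in the labels. The 3 CSF1 libraries, titled PB, came from mice that carry mouse Csf1 behind the rat probasin promoter, a promoter active in prostate luminal cells, and the 3 WT libraries came from littermates without it. Both groups hold libraries numbered 3, 5 and 8. These numbers are the first part of the titles, and a second number after a slash is the same in all 6 titles. What either number stands for, and whether it marks a batch, is not given in the labels. Separate animals are not stated, so the p-values measure the spread between these libraries, which may be technical.

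Csf1 itself checked the labels, at 1.54 to 3.98 FPKM in WT and 1082 to 1678 FPKM in CSF1. Read coverage per FPKM, which grows with depth, ran from 2.72 to 3.50 in WT and from 4.17 to 5.01 in CSF1. Of 13 luminal markers, 4 were higher in CSF1 (Epcam, Cdh1, Prom1 and Tmprss2), 1 was lower (Hoxb13) and 8 were not called, among them the most abundant, Pbsn and Msmb. Most tested markers of other cell types were higher in CSF1. Many had WT means below 1 FPKM, among them Cd3g, Il7r, Pecam1 and several macrophage and fibroblast markers. These met the minimum only through CSF1, so their calls were favoured by the filter. The summed FPKM of 21 macrophage and monocyte markers ran from 36.8 up to 158 among WT libraries but from 1051 up to 4202 among CSF1 libraries, highest in the CSF1 library numbered 8, and 19 of the 20 tested rose while Mertk fell. Of these, Lyz2 and Ctss were the most abundant. The sum of 11 basal cell markers was between 66.7 and 81.0 in WT and between 561 and 880 in CSF1. That of 13 fibroblast and smooth muscle markers was between 100.1 and 111 in WT and between 485 and 762 in CSF1. Krt15 and Krt17 led the basal sum and Dcn and Tagln the other. Lymphocyte markers (led by Cd3g and Il7r) summed to 0.736 to 1.90 in WT and 10.7 to 39.9 in CSF1, endothelial markers (led by Plvap and Pecam1) to 1.20 to 3.74 and 13.5 to 18.6, and neutrophil markers (led by S100a8) to 0 to 0.133 and 1.40 to 31.2. Of 7 neutrophil markers in the tables, 5 were listed at 0 in every WT library. In sorted bulk RNA, more cells of a type and more RNA per cell cannot be told apart. The part of these other cells in the results below was not tested.

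Across all genes, limma called 32.4% of the tested genes at an adjusted p under 0.05, with 2731 higher (24.9%) and 818 lower (7.47%) in CSF1. The median log2 change of all genes was 0.17. That median was -0.16 with quantile normalization and -0.01 with median-ratio scaling. With quantile normalization the split was 1694 higher and 2362 lower, and with median-ratio scaling it was 2135 higher and 1677 lower. Against this background, 7 of the 10 AP-1 and EGR1 genes were called, with 6 higher (Fos, Fosb, Fosl1, Fosl2, Junb and Batf) and 1 lower (Atf3). The 3 that did not pass were Jun, Jund and Egr1. Batf was near 0 in WT and reached the minimum level only through CSF1, so its call was favoured by the filter, and without it 5 of the other 9 were higher. In 6 of the 10 the groups did not overlap, 5 higher and 1 lower, beside 47.7% of all tested genes (34.7% higher and 13.1% lower). Batf is 1 of these 5, and its place there was likewise favoured by the filter. The median log2 change of the 10 was 0.78. Relative to the median of all genes, the log2 change was 0.76 for Fos, 0.37 for Junb, 0.06 for Jun, -0.20 for Jund, -0.74 for Atf3 and 0.45 for Egr1. With the library number as a block, Egr1 passed as well, which gave 7 higher beside 26.3% of all genes, 1 lower beside 8.13%, and 8 in either direction beside 34.5%. Batf, favoured by the filter, is also counted in this 7 and this 8.

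**Figure D1:**
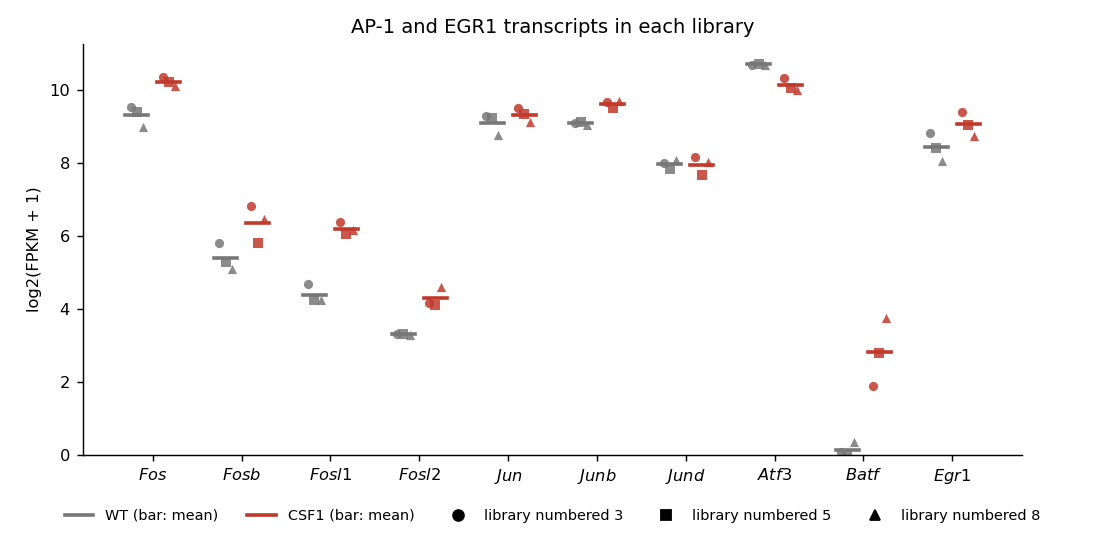
Level of each gene as log2(FPKM + 1) in the 3 WT (grey) and 3 CSF1 (red) libraries, with a different symbol for each library number and a bar at the mean of the log2 values. Fos, Fosl1, Fosl2, Junb and Batf were higher in all 3 CSF1 libraries than in any WT library, and Atf3 was lower.

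The promoters of Fos, Fosb, Junb and Atf3 are printed because these genes moved, 3 upward and 1 downward, and share 1 short motif. Batf, near 0 in WT, also rose and holds this motif, but its window is not printed. Fosl2 also rose, and its window does not hold this motif. Windows of 250 bases before the RefSeq transcription start (GRCm38.p6) were found for 8 of the 10 genes, not for Fosl1 and Egr1. They were searched on both strands. The core of the cyclic AMP response element, TGACG, which CREB and ATF factors bind, occurred in 5 of the 8 (Fos, Fosb, Junb, Atf3 and Batf), beside 17.8% of 32851 promoter windows of all genes. The full element TGACGTCA, which contains the core, was in 0 of the 8 beside 1.55% of all windows. The AP-1 site TGANTCA was likewise in 0 of the 8 beside 6.75%, and the CArG box of serum response factor in 0 of the 8 beside 1.47%. Bases further upstream were not searched, so these genes may hold such sites outside the windows. The EGR site GCGNGGGCG occurred in Fosb and Fosl2, beside 4.70% of all windows. The GC box GGGCGG was in 6 of the 8 (Fos, Fosb, Fosl2, Jun, Atf3 and Batf) beside 32.7%. The TATA box TATAAA was in 1 of the 8 (Fos) beside 12.4%. GC content of the 8 windows ran from 46.4% (Batf) to 68.8% (Fosb). Windows of like GC content were not compared, and no motif count was tested. A match describes the letters of these windows and shows no binding. Each line runs 5′ to 3′ on the strand of the gene and ends 1 base before that RefSeq start. The measured Fos transcript begins further downstream, at 85473901. Capitals mark TGACG on either strand and the EGR site.
Fos (chr12:85473640-85473889, plus strand): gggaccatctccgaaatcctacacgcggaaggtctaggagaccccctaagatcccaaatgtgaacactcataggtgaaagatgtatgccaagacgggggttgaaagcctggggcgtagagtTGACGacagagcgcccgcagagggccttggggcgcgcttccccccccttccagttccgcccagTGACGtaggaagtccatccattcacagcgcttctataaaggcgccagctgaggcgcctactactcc
Fosb (chr7:19310046-19310295, minus strand): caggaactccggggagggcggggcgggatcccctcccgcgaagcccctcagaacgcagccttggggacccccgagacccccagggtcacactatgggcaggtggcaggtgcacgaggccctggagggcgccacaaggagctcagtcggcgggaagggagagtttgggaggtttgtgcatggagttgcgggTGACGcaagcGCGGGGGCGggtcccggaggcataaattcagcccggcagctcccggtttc
Junb (chr8:84978749-84978998, minus strand): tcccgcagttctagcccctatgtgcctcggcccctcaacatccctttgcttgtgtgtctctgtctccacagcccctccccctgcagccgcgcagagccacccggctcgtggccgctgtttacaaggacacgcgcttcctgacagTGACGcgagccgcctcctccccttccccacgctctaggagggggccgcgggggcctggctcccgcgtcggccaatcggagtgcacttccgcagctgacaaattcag
Atf3 (chr1:191183334-191183583, minus strand): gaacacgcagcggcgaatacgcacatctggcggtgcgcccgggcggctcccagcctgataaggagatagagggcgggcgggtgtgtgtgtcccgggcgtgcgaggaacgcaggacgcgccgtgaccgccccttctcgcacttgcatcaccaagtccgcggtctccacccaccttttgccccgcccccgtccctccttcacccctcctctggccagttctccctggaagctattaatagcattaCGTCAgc
The TGACG match nearest to the RefSeq start of Fos covers bases 66 to 62 before it, and that of Fosb bases 60 to 56. The match of Junb lies at bases 106 to 102. In Atf3 it stands on the opposite strand at bases 7 to 3.

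All 4 FOS family genes rose in CSF1, by 1.88-fold to 3.60-fold in mean FPKM. Fos, the partner of JUN proteins in the classical AP-1 dimer, spans 85473901 to 85477270 on chromosome 12 in the mm10 coordinates of the tables. It measured 737, 668 and 510 FPKM in the WT libraries numbered 3, 5 and 8, against 1318, 1182 and 1109 in the CSF1 libraries with these numbers. Every CSF1 library was above every WT library, and in both groups the library numbered 3 was the highest and that numbered 8 the lowest. The mean went from 638 ± 117 to 1203 ± 106 FPKM (SD, n = 3 each), a log2 change of 0.93 ± 0.16 (SE) on the log2(FPKM + 1) scale, which was larger than the spread between libraries (limma adjusted p = 0.00318). Among all genes of a library, Fos ranked between 65 and 130 by FPKM in WT and between 33 and 54 in CSF1. The half-width of Cufflinks' own confidence interval was 0.60% to 1.25% of the value, smaller than the differences between libraries of a group.

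Fosl1 encodes FRA1, a FOS protein without the strong activation domain of FOS that is known from migrating and invasive epithelial cells. Its level was 24.7, 18.0 and 17.9 FPKM in the WT libraries and 81.7, 65.8 and 70.7 FPKM in the CSF1 libraries, in the order 3, 5 and 8. The groups lay far apart, with the lowest CSF1 library above the highest WT library. Its log2 change of 1.81 ± 0.17 was the largest in the FOS family (limma adjusted p = 0.000117). Fosl1 lies on chromosome 19 at 5447698 to 5455938, and 1163 of its exon bases are shared with Ccdc85b on the opposite strand. The libraries carry no strand, so reads from these bases cannot be assigned. Ccdc85b was at a mean of 8.60 FPKM in WT and 6.87 FPKM in CSF1.

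Fosl2 encodes FRA2, the other FOS-related antigen (chromosome 5, 32136472 to 32157839). The 3 WT libraries were nearly equal at 8.998, 8.96 and 8.78 FPKM, and the CSF1 libraries reached 16.8, 16.3 and 23.4 FPKM. All CSF1 values were above all WT values, and the library numbered 8 was the highest in CSF1. The log2 change was 0.98 ± 0.17 (limma adjusted p = 0.00272). Fosb (chromosome 7, 19302696 to 19310045) encodes FOSB, and 1 transcript is listed for it, so the truncated splice form known as delta FOSB was not measured apart. Fosb measured 55.1, 38.1 and 33.0 FPKM across the WT libraries, against 113, 54.6 and 87.0 across the CSF1 ones. The CSF1 library numbered 5 lay just below the WT library numbered 3, so the groups overlapped. Its log2 change was 0.97 ± 0.28 (limma adjusted p = 0.0287). The call was lost on leaving out the WT library numbered 5 or 8 or the CSF1 library numbered 3 or 8 (limma adjusted p = 0.0935, 0.0988, 0.0858 and 0.0666) and with median-ratio scaling (0.0958) or quantile normalization (0.0922), over a range of 0.00723 to 0.157 in all alternatives. Within library numbers, the ratio of CSF1 to WT was 2.05, 1.43 and 2.64 for Fosb.

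Among the JUN family, which supplies the partner of FOS in the AP-1 dimer, Junb rose and Jun and Jund did not pass. Junb (chromosome 8, 84976909 to 84978748) encodes a JUN protein known to activate less strongly than JUN on many promoters. It measured 551, 554 and 525 FPKM across the WT libraries, against 819, 729 and 827 across the CSF1 ones. The WT values lay close together, and all 3 CSF1 libraries were above them. The mean rose 1.46-fold, from 543 ± 16.0 to 792 ± 54.6 FPKM, a log2 change of 0.54 ± 0.12 (limma adjusted p = 0.00889). It did not pass with median-ratio scaling, at 0.33 (limma adjusted p = 0.0784), nor when scaled to the summed FPKM without the top 5 genes, at 0.34 (limma adjusted p = 0.0587, over a range of 0.00807 to 0.0784 in all alternatives). Junb shares 173 exon bases with Prdx2 on the opposite strand, which was at a mean of 211 FPKM in WT and 242 FPKM in CSF1.

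Jun, the founding member of the family, lies on chromosome 4 at 95049036 to 95052222. Its values were 625, 597 and 432 FPKM in WT and 730, 644 and 557 FPKM in CSF1, and the groups overlapped. In both groups the library numbered 3 was the highest and that numbered 8 the lowest. The log2 change of Jun was 0.23 ± 0.18 and did not pass (limma adjusted p = 0.357), nor with the block (0.145), and it was 0.02 with median-ratio scaling. Jund encodes the JUN protein that is present in most resting cells (chromosome 8, 70697739 to 70700616). It measured 256, 229 and 270.0 FPKM across the WT libraries, against 285, 201 and 260 across the CSF1 ones. Highest and lowest of the 6 Jund values were both CSF1 libraries. The log2 change was -0.03 ± 0.16 (limma adjusted p = 0.907), and it was 0.11 without the CSF1 library numbered 5 and 0.02 without the WT library numbered 8. Jun shares 232 exon bases with the antisense gene Junos and Jund 877 with the antisense gene Gm11175, neither of which is among the genes analysed here.

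Atf3 was the most abundant of the 10 genes in WT and the only one called lower. Its product is a stress-induced factor that represses many of its targets as a homodimer and also pairs with JUN proteins. The gene spans 191170297 to 191183333 on chromosome 1. Atf3 measured 1642, 1694 and 1657 FPKM across the WT libraries, against 1289, 1067 and 1023 across the CSF1 ones. The WT libraries differed by little, and all 3 CSF1 libraries were below them. The mean went from 1664 ± 26.7 to 1126 ± 143 FPKM, which is 0.677 of the WT mean, with a log2 change of -0.57 ± 0.13 (limma adjusted p = 0.012). Atf3 ranked between 20 and 26 among all genes of a WT library and between 34 and 63 in CSF1. The call was lost without the WT library numbered 5 (limma adjusted p = 0.0559), without the CSF1 library numbered 5 (0.0583) and with no filter on low values (0.0628), over a range of 0.00334 to 0.0628. The log2 change was -0.78 with median-ratio scaling and with quantile normalization.

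Batf encodes a small basic leucine zipper protein that pairs with JUN proteins and is known from lymphocytes and myeloid cells. It lies on chromosome 12 at 85686720 to 85709087. Batf measured 0.0454, 0 and 0.266 FPKM in the WT libraries numbered 3, 5 and 8, against 2.71, 5.96 and 12.4 in the CSF1 libraries with these numbers. It was near 0 in all 3 WT libraries and passed the filter through the CSF1 group alone, so a difference was built into its selection and the test adds little to the values. The log2 change was 2.68 ± 0.42 (limma adjusted p = 0.00166), and it depends on the pseudocount, at 5.09 with a pseudocount of 0.1 and 1.16 with 5. In the same CSF1 libraries the macrophage marker sum was 1051, 1292 and 4202 FPKM, and the sum of 13 lymphocyte markers was 10.7, 12.6 and 39.9 FPKM. Batf and both sums were highest in the CSF1 library numbered 8 and lowest in that numbered 3. Among CSF1 libraries, Fos was lowest in that numbered 8, at 1109 FPKM. Without both libraries numbered 8 the log2 change was 0.83 for Fos (limma adjusted p = 0.00475) and 2.31 for Batf (limma adjusted p = 0.00354). The libraries numbered 3 and 5 that remain still differed in the macrophage marker sum, at 36.8 and 45.1 FPKM in WT against 1051 and 1292 FPKM in CSF1. The part of macrophages and lymphocytes in the Batf and Fos results was not tested.

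Egr1 binds GC-rich promoter sites and is held in check by the NAB co-repressors. The gene lies on chromosome 18 at 34861207 to 34864956. Egr1 measured 452, 341 and 266 FPKM in the WT libraries numbered 3, 5 and 8, against 674, 530 and 424 in the CSF1 libraries with these numbers. The groups overlapped, since the CSF1 library numbered 8 was below the WT library numbered 3, but within each number the CSF1 library was the higher one. The ratios were 1.49, 1.55 and 1.59. Without the block the log2 change of 0.63 ± 0.23 did not pass (limma adjusted p = 0.0691), and with the library number as a block it was 0.63 ± 0.10 and passed (limma adjusted p = 0.00472). It also passed without the WT library numbered 3 (0.029) or the CSF1 library numbered 8 (0.0337), and reached 0.274 when FPKM were scaled to the summed FPKM without the top 5 genes.

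**Figure D2:**
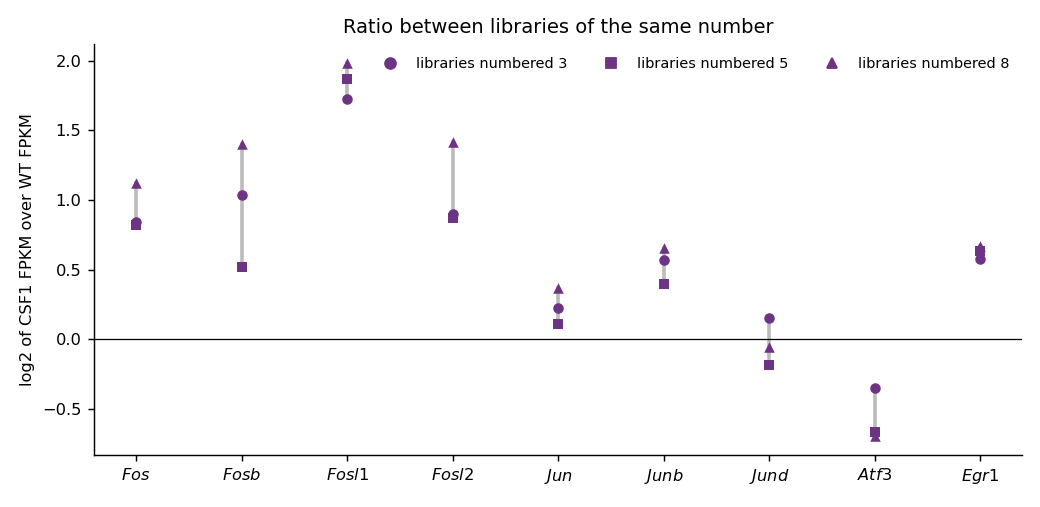
Log2 ratio of CSF1 to WT FPKM between the libraries that share a number, for 9 genes (Batf is left out because 1 WT value is 0). The 3 Egr1 ratios lie close together at 1.49, 1.55 and 1.59, and the Jund ratios stand on both sides of 0 on the log2 axis.

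**Figure D3:**
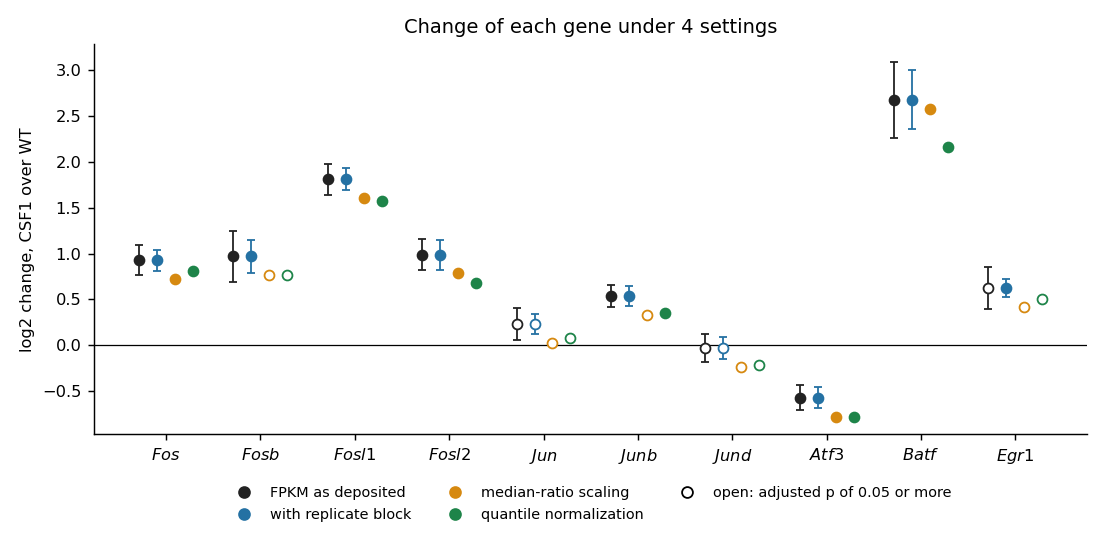
Log2 change of CSF1 over WT for each gene as deposited, with the library number as a block, with median-ratio scaling and with quantile normalization. Bars are 1 SE for the fits as deposited and with the block, and open circles did not pass. Fos, Fosl1, Fosl2, Batf and Atf3 passed in all 4 fits, and Jun and Jund in none. Batf met the minimum level only through CSF1, so its passing adds little.

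Because FPKM is scaled per transcript length, levels can be set beside each other. In WT the order of mean FPKM was Atf3, Fos, Jun, Junb, Egr1, Jund, Fosb, Fosl1, Fosl2 and Batf. The libraries of Fos overlapped those of Jun, those of Jun overlapped Junb, and those of Egr1 overlapped Jund, while the other neighbours were apart. In CSF1 Fos came first and overlapped Atf3, followed by Junb, Jun and Egr1, which overlapped in sequence, then Jund, Fosb, Fosl1, Fosl2 and Batf, with Fosb and Fosl1 overlapping.

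Shares within a family do not depend on scaling between libraries. Fos made up 89.97% ± 1.01 of FOS family FPKM in WT and 87.3% ± 2.06 in CSF1 (SD, n = 3 each). The share of Fosl1 was 2.99%, 2.46% and 3.14% in WT and 5.34%, 4.99% and 5.48% in CSF1, with no overlap (exact two-sided permutation p = 0.1, adjusted 0.233 over 7 shares). The smallest p that 3 libraries against 3 allow is 0.1. In the JUN family, the share of Junb was 38.5%, 40.1% and 42.8% in WT and 44.7%, 46.3% and 50.3% in CSF1. That of Jund was 17.9%, 16.6% and 22.0% in WT and 15.5%, 12.8% and 15.8% in CSF1. Neither overlapped between groups, and both had an exact permutation p of 0.1 (adjusted 0.233). Jun took 40.7% ± 4.75 in WT and 38.2% ± 3.80 in CSF1 (exact permutation p = 0.5, n = 3 each). Shares of Fosb and Fosl2 also overlapped between groups. The FOS family sum was 709 ± 130 FPKM in WT and 1379 ± 131 in CSF1, and the JUN family sum 1347 ± 106 and 1684 ± 135.

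**Figure D4:**
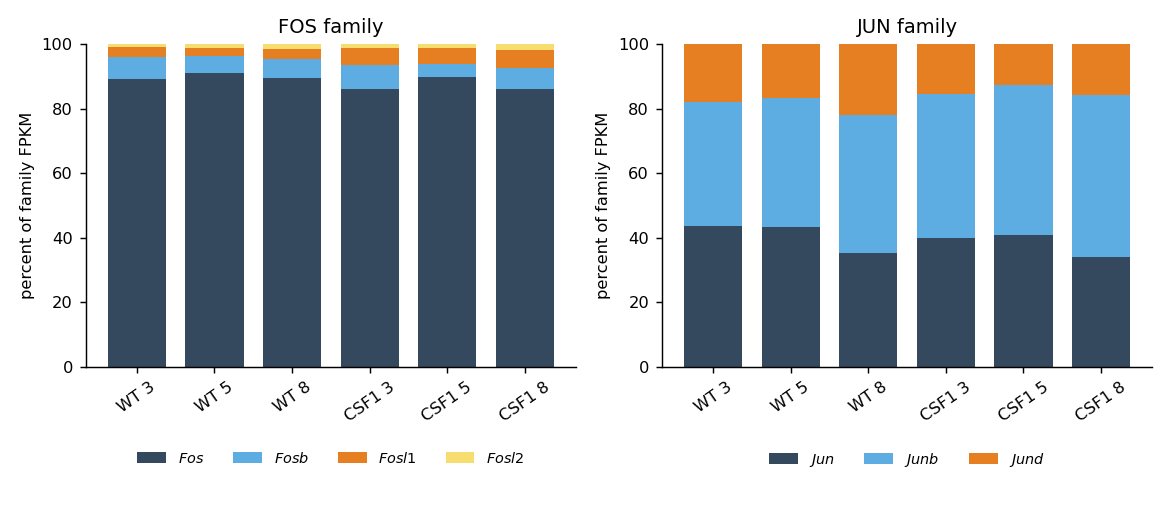
Percent of the summed FPKM of the FOS family (left) and the JUN family (right) that each gene takes in each library. The Fosl1 band is 2.46% to 3.14% in WT and 4.99% to 5.48% in CSF1, and the Junb band is 38.5% to 42.8% in WT and 44.7% to 50.3% in CSF1.

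Other factors that join AP-1 dimers moved upward where they were called. Of 16 listed, 11 were tested, 6 were higher, 0 lower and 5 not called, with a median log2 change of 0.55 beside 0.17 for all genes. Of all tested genes, 24.9% were called higher. Jdp2, which represses JUN targets, rose from 1.04 ± 0.353 to 15.4 ± 7.54 FPKM (log2 change 2.92). Maff, a small MAF protein, rose from 16.1 ± 2.19 to 33.9 ± 5.55 FPKM, and Crem, a regulator of cyclic AMP response elements, from 24.0 ± 4.34 to 49.3 ± 6.81 FPKM. Limma adjusted p-values of these 3 ran from 0.000232 (Jdp2) to 0.00236 (Crem). Jdp2 was highest in the CSF1 library numbered 8, at 23.9 FPKM, which also had the highest macrophage marker sum, 4202 FPKM. Of the other EGR factors and NAB co-repressors, 4 of 5 were tested and 3 rose, beside the same 24.9% of all tested genes. Nab1 rose from 6.50 ± 0.452 to 15.7 ± 1.63 FPKM (limma adjusted p = 0.000659), Egr2 from 15.1 ± 6.49 to 33.8 ± 11.6 FPKM (0.0249) and Egr3 from 0.521 ± 0.602 to 2.67 ± 1.79 FPKM (0.0406). The WT mean of Egr3 was below the minimum of 1 FPKM, which it reached only through CSF1, so its call was favoured by the filter. Under median-ratio scaling or quantile normalization 1 of the 3 passed.

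Upstream of these genes, the MAP kinase and serum response factor list had 29 of 32 members tested, of which 6 were higher, 0 lower and 23 not called (median log2 change 0.39). The share called higher was no larger than the 24.9% of all tested genes. Elk3, among the 6, had a WT mean of 0.623 FPKM. It met the minimum of 1 FPKM only through CSF1, so its call was favoured by the filter. Map3k8, a kinase that links inflammatory receptors to ERK, went up from 6.51 ± 2.17 to 18.2 ± 3.26 FPKM, a change of 1.38 on the log2 scale (limma adjusted p = 0.00242). Map3k1 and Map2k4, which lie above the JUN kinases, rose from 1.28 ± 0.172 to 4.22 ± 0.762 FPKM and from 28.3 ± 4.06 to 54.6 ± 9.57 FPKM. With median-ratio scaling 4 members of this list were called lower and the list median was 0.20. With quantile normalization 2 were called lower and the list median was -0.01.

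Other immediate early genes rose more than the 10 factors did in several cases. All 37 were tested, 23 were higher, 0 lower and 14 not called, with a median log2 change of 0.90. The share of all tested genes called higher was 24.9%. Dusp2 and Dusp4, among the 23, had WT means of 0.524 and 0.216 FPKM. Both met the minimum of 1 FPKM only through CSF1, so their calls were favoured by the filter. Arc, best known from neurons, went up from 46.8 ± 5.42 to 562 ± 52.7 FPKM, a change of 3.56 on the log2 scale (limma adjusted p = 2.41e-06). Ctgf, a matricellular gene, rose from 4.77 ± 1.92 to 66.6 ± 23.6 FPKM. Ier5 rose from 3.98 ± 0.608 to 57.1 ± 9.45 FPKM, and Dusp6, a phosphatase that dampens ERK, from 5.55 ± 0.886 to 74.0 ± 10.1 FPKM. Heat shock genes, which are known to rise together with Fos and Jun in dissociated cells, moved in the same libraries. Of 12 tested, 10 were higher, 0 lower and 2 not called, with a median of 0.84, beside 24.9% of all tested genes higher. Hspa1a went from 500.4 ± 147 to 1318 ± 126 FPKM and Hspa1b, its near-identical copy, whose reads may be shared, from 619 ± 189 to 1517 ± 76.8 FPKM. Dnaja1 and Dnajb1, co-chaperone genes, rose from 36.9 ± 10.4 to 90.7 ± 19.4 FPKM and from 182 ± 72.5 to 400.2 ± 53.1 FPKM. With median-ratio scaling or quantile normalization 6 of the 12 passed. In these libraries Fos was higher, Jun was not called (log2 change 0.23) and Atf3 was lower (-0.57). The part of cell handling in the AP-1 and EGR1 values was not tested.

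Genes described as AP-1 targets were mostly higher. Of 28, 22 were tested, 19 were higher, 1 lower and 2 not called, beside 24.9% higher and 7.47% lower among all tested genes. The list had a median log2 change of 2.45. Spp1 went up from 10.4 ± 14.8 to 145 ± 141 FPKM, a change of 4.24 ± 1.06 on the log2 scale (limma adjusted p = 0.016), with the CSF1 library numbered 8 at 305 FPKM. Ccl2, a monocyte chemokine gene, Cd44, a hyaluronan receptor gene, and Il6 had log2 changes of 4.18, 3.80 and 3.79. Odc1, which encodes the first enzyme of polyamine synthesis, fell from 74.7 ± 9.32 to 48.5 ± 6.96 FPKM, a log2 change of -0.61 (limma adjusted p = 0.0181), and did not pass without the WT library numbered 5 or 8 or the CSF1 library numbered 3. Of 13 genes described as EGR1 targets, 11 were tested, 8 were higher, 0 lower and 3 not called (median 1.41), beside the same 24.9% higher. Icam1, an adhesion gene, rose from 5.66 ± 4.03 to 110.1 ± 44.9 FPKM, the tissue factor gene F3 from 17.5 ± 4.73 to 150.2 ± 29.7 FPKM, Pdgfb from 0.207 ± 0.144 to 6.58 ± 3.91 FPKM and Fn1, which is on both lists, from 0.252 ± 0.217 to 5.75 ± 0.443 FPKM. Macrophages and fibroblasts express many of these target genes, and their marker sums were higher in the same libraries. Members near 0 in WT entered the counts only where they were high in CSF1.

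**Figure D5:**
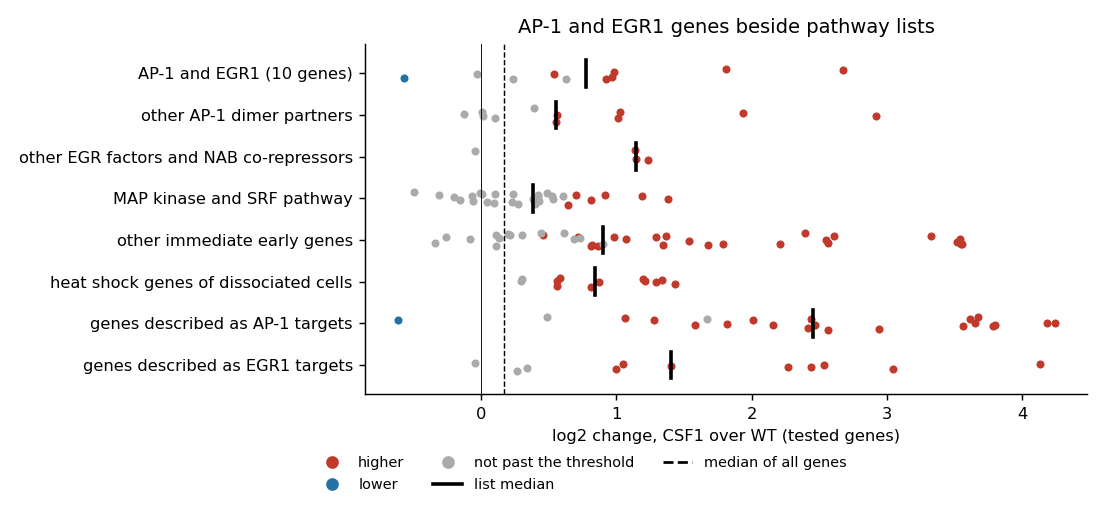
Log2 change of CSF1 over WT for the 10 AP-1 and EGR1 genes and for the tested genes of each pathway list, with the list median as a black bar and the median of all genes (0.17) as a dashed line. Red genes rose, blue genes fell and grey genes did not pass.

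The genes whose log2(FPKM + 1) followed Fos most closely over the 6 libraries were Eml2 (Pearson r = 0.997), Pnrc1 (0.996), Git2 (0.994) and B4galt1 (0.99). For Junb they were Zswim4 (0.998), Irf7 (0.997), Slc22a23 (0.996) and Ppp1r15a (0.996), and for Atf3 Ccdc17 (0.997), Dixdc1 (0.996), Hist1h4j (0.992) and Smpdl3a (0.992). Egr1 was followed most closely by Egr2 (0.99), Nr4a2 (0.988), Atp7a (0.983) and Itpr1 (0.983). Egr2 lay in the same order of library numbers as Egr1 in both groups, with 22.3, 13.1 and 9.82 FPKM for the WT libraries numbered 3, 5 and 8 and 46.6, 30.7 and 24.0 for their CSF1 counterparts. These coefficients are descriptions over 6 libraries that share the difference between the groups and each library's depth, and they were not tested.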

How the data were processed

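RNA from 6 sorted luminal cell libraries, 3 per group, was compared. Libraries were made with SMART-Seq v4, a kit that does not mark strand, per the labels' protocols. The submitters' processing notes name bcl2fastq 1.8.3, TopHat, Cufflinks and mm10, with no other versions. FPKM and their confidence bounds per transcript were deposited by the authors, per the file headers, with a coverage signal that the authors also deposited and that served as a depth measure. Read counts were not used here.

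FPKM were summed per symbol, leaving out 9 genes with a failed status. The 10951 genes whose mean reached 1 FPKM were tested on log2(FPKM + 1) with limma 3.58.1 in R 4.3.3, with an intensity trend and Benjamini-Hochberg adjustment at 0.05. The procedure was tested on simulated data. Libraries that share a title number deviated together, though weakly (r = 0.257 for 3, 0.111 for 5 and 0.182 for 8, across genes). Between unlike numbers r ran from -0.227 to -0.00641. Values were centred within each group, so these coefficients are not independent. A fit with the number as a block was therefore also made. What the numbers stand for is not given in the sources used here. Family shares used exact permutation tests.

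The genes and the lists were chosen with earlier results of these data known. All 10 factors are named, from each pathway list up to 4 called genes with the largest change and those behind a count of 5 or fewer, from each marker list the 2 most abundant, and the 4 genes most like Fos, Junb, Atf3 and Egr1. Values of 2 genes that this rule names are not reported here. Alternatives changed the pseudocount, filter, scaling, trend, block, transcript choice and libraries. Scaling to the summed FPKM without the top 5 genes, with and without the block, and leaving out both libraries numbered 8 were chosen after seeing the data.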

Additional observations from a re-analysis of the deposited data

How the results depend on the processing

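Of 170 recomputed log2 changes of the 10 genes, 150 kept their direction and side of the threshold, 14 lost the call, 4 gained it and 2 turned sign. Fos, Fosl1 and Fosl2 passed in all 17 alternatives. Batf did too, but it was near 0 in WT and met the minimum level only through CSF1, so its passing adds little. The replicate block, which uses the pairing by library number, raised Egr1 past the threshold at 0.63 (limma adjusted p = 0.00472) and changed no other call among the 10 in FPKM as deposited. With scaling to the summed FPKM without the top 5 genes (called rescaling here), the block gave Egr1 0.43 (0.0189), and it also brought Fosb (0.0868 without the block, 0.0162 with it) and Junb (0.0587 and 0.0464) past the threshold. Fosb lost its call with median-ratio scaling (0.76), no filter (0.97), quantile normalization (0.77), that rescaling (0.78) and without both libraries numbered 8 (0.76). Junb lost it with median-ratio scaling (0.33) and that rescaling (0.34), and Atf3 with no filter (-0.57), where 0 of the 10 were called lower. Leaving out 1 library gave ranges of 0.73 to 1.25 for Fosb, -0.67 to -0.50 for Atf3, 0.44 to 0.82 for Egr1, and -0.13 to 0.11 for Jund, which turned to 0.11 without the CSF1 library numbered 5 and 0.02 without the WT library numbered 8. It gave 5 to 7 of the 10 higher and 0 to 1 lower. The Fosb share turned to -0.44, -0.13 and -0.14 points without the CSF1 library numbered 3 or 8 or the WT library numbered 5, over -0.44 to 1.18, and the Fosl2 share to -0.12 without the CSF1 library numbered 8, over -0.12 to 0.24.

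Across all genes, 1694 were higher with quantile normalization. The number lower was 1677 with median-ratio scaling, 2362 with quantile normalization, 1433 with rescaling (1533 with the block), 485 without both libraries numbered 8, and 478 to 850 on leaving out 1 library. Heat shock genes higher numbered 6 with median-ratio scaling, quantile normalization, rescaling with or without the block and without both libraries numbered 8. Other EGR and NAB genes higher numbered 1 with median-ratio scaling, no filter, quantile normalization or rescaling, and 1 to 3 on leaving out 1 library. MAP kinase genes lower numbered 4, 2, 2 and 1 with median-ratio scaling, quantile normalization, rescaling and rescaling with the block, and 0 to 1 on leaving out 1 library. Immediate early genes lower numbered 1, 1 and 2 with quantile normalization, rescaling and rescaling with the block, and 0 to 1 on leaving out 1 library, as did AP-1 targets lower. The cause was not tested. Without counts, Cufflinks' intervals are the only measure of depth per gene, and Batf in WT is at its limit.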
